A study of Mus musculus with 9 samples.

Results

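Matricellular proteins are secreted into the extracellular matrix, where they act on cells, growth factors and proteases rather than carrying load themselves. The mRNAs of 9 such proteins were followed in mouse gastrocnemius muscle: Ccn1, Ccn2, Thbs1, Thbs2, Thbs4, Tnc, Postn, Sparc and Spp1. The genes were chosen by name from 4 kinds of protein (CCN proteins, thrombospondins, tenascin-C with periostin, and the acidic glycoproteins SPARC and osteopontin) and make up 9 of the 55487 genes in the count table. All 9 were among the 14851 genes with enough counts to be tested.

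Gastrocnemius, a calf muscle that bears weight during walking, was taken from wild-type C57BL/6 mice, which carried no transgene and received no drug. The study names the substrain C57BL/6J. The labels call all animals male, whereas the study's methods describe females for the unloading procedure, and the labels give no age. Control mice (4 libraries) walked freely in their cages, Unloading mice (2 libraries) had spent 10 days with the hindlimbs lifted off the floor by a line attached to the tail, and Reloading mice (3 libraries) had spent the same time unloaded followed by 1 day of normal cage activity. Polyadenylated RNA of whole muscle was sequenced, and levels are given as counts per 1000000 (CPM) of the library total after TMM scaling, which corrects that total for differences in RNA composition. The study design asks what the loss of load changes, what the return of load changes, and how far reloaded muscle is from muscle that was never unloaded. In whole muscle, a change in the number of cells of a type and a change in RNA per cell cannot be told apart.

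Library totals ran from 9252443 to 19612101 counts, so that 1 count equalled 0.0545 to 0.113 CPM. Replicates correlated at 0.981 to 0.99 across genes. A pair of libraries, Control 2 and Reloading 1, held skin transcripts: the epidermal keratin Krt2 had 1086 and 502 counts there and at most 3 in any other library. Results are therefore also given without that pair. Mitochondrially encoded genes took 6.49% to 6.75% of counts in Reloading and 9.36% to 10.6% in the other groups. Muscle fibre genes such as Acta1, Ckm and Myh4 summed, over the 12 listed, to 128000 to 142000 CPM in Reloading. The sum was 179000 to 195000 CPM in Control and 185000 to 191000 CPM in Unloading. TMM scaling put the median log2 fold change of all genes at 0.03 in Reloading against Unloading and 0.01 in Reloading against Control. Scaling by library totals alone moved those medians to 0.27 and 0.25. Of the genes that passed an adjusted p of 0.05 in Reloading against Unloading, the share that were higher moved from 49.3% to 82.7%. All changes below are relative to the TMM scale.

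The CCN proteins CCN1 and CCN2 are immediate targets of mechanical stretch and growth factor signals in many cells and bind integrins and heparan sulphate. Thrombospondins bind integrins, CD36, CD47 and calcium channel subunits, and thrombospondin-1 activates latent TGF-beta. Tenascin-C and periostin are found at muscle-tendon junctions and in healing wounds, SPARC binds collagen and takes part in basement membrane assembly, and osteopontin, encoded by Spp1, is made by macrophages and other cells of injured muscle.

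The 250 bases before a RefSeq start site are printed for 4 of the genes, because Ccn1, Thbs4 and Postn rose together under reloading whereas Spp1 did not pass the test against Unloading. In build GRCm38.p6 the windows are chr3:145649986-145650235 on the minus strand (Ccn1), chr13:92794819-92795068 on the minus strand (Thbs4), chr3:54360857-54361106 on the plus strand (Postn) and chr5:104434861-104435110 on the plus strand (Spp1). Each is written 5′ to 3′ on the strand of its gene, and capitals mark matches to GGAATG, the core letters that TEAD factors bind, on either strand (CATTCC is its reverse complement), and to TATAAA, the TATA box, on the gene's own strand.
Ccn1: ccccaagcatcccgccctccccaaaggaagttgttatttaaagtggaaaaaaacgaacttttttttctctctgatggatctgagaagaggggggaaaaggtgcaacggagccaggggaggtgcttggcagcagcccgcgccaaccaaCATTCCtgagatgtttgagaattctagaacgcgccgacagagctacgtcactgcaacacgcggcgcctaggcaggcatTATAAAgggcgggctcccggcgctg
Thbs4: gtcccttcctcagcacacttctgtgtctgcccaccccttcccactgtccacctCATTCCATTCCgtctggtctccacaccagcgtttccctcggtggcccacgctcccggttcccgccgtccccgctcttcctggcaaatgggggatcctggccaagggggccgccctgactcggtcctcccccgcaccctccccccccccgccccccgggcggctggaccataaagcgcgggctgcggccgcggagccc
Postn: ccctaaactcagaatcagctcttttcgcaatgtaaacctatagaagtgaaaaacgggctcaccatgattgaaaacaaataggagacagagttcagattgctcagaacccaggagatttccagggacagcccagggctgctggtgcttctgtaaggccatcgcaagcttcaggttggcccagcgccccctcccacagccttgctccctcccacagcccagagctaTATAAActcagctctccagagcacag
Spp1: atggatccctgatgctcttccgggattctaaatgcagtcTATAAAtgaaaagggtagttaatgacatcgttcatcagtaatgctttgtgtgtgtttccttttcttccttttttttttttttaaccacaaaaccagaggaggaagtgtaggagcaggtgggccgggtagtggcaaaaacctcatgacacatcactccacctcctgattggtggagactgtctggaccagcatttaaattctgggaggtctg
Counted back from the start site, Ccn1 held the TEAD letters at -103 to -98 and a TATA box at -25 to -20. Thbs4 held the TEAD letters at -197 to -192 and again, sharing a base, at -192 to -187. Postn held a TATA box at -26 to -21, and the only match in the printed window of Spp1 was TATAAA at -211 to -206. Postn and Spp1 each have another RefSeq window, beginning at 54359017 and at 104435942. Those windows are not printed and held none of these matches.

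RefSeq gave 10 such windows for 7 of the 9 genes, with no entry for Ccn2 and Thbs1. The TEAD letters were found in 2 of the 10 windows and in 12.6% of the 32851 promoter windows of all genes. TATAAA was found in 5 windows, from Ccn1, Tnc, Postn and Spp1, against 7.59% of all windows. The Tnc windows overlap, and their matches, from -205 and from -126, are the same bases counted from different start sites. The matches of Ccn1 and Postn began at -25 and -26, that of Spp1 at -211. TGANTCA, which AP-1 factors bind, was in 0 of the 10 (6.75% of all), the CArG box of serum response factor in 0 (1.47% of all) and TGACG, a core bound by CREB factors, in 1, that of Ccn1 (17.8% of all). These were searched on both strands. A match is a description of letters and does not show binding.

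Reloading raised 7 of the 9 mRNAs above their level in Unloading, and lowered none. Those 7 were Ccn1, Ccn2, Thbs1, Thbs4, Tnc, Postn and Sparc, with rises of 2.11-fold (Sparc) to 5.04-fold (Thbs1). In each of them all 3 Reloading libraries stood above both Unloading libraries. By edgeR's quasi-likelihood test with Benjamini-Hochberg adjustment over all genes, 18.5% of tested genes were called higher and 19.0% lower in that comparison, and 31.0% of tested genes were higher without overlap. The median log2 fold change of the 9 was 1.37, and without the pair of libraries with skin transcripts the 7 rises ran from 0.95 to 2.09 and all passed. Scaling by library totals alone left the count at 7 higher and 0 lower, while the split over all genes moved from 2743 higher and 2822 lower to 5229 higher and 1093 lower.

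Unloading by itself raised Ccn1 and called no other member in either direction, where 4.40% of tested genes were called higher and 5.50% lower. Ccn1, Thbs2 and Spp1 were higher in both Unloading libraries than in all 4 Control libraries, and 16.4% of all genes did the same. Without Unloading 1 the count of called members was 0, and without Reloading 1 or Reloading 3, which enter the estimate of the spread, it was 2. The median log2 fold change of the 9 was 0.13, against 0 for all genes. Reloading against Control, which shares libraries with both other comparisons, had 8 of 9 higher and none lower, where 22.1% of tested genes were called higher and 21.3% lower. Of the 9, 7 were higher without overlap there, against 24.2% of all genes, and the median log2 fold change was 1.36. Spp1 was the exception, and under library totals alone all 9 were called. The labels give the replicates as separate samples without saying what their numbers mark, so p-values measure the spread between these libraries.

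**Figure D1:**
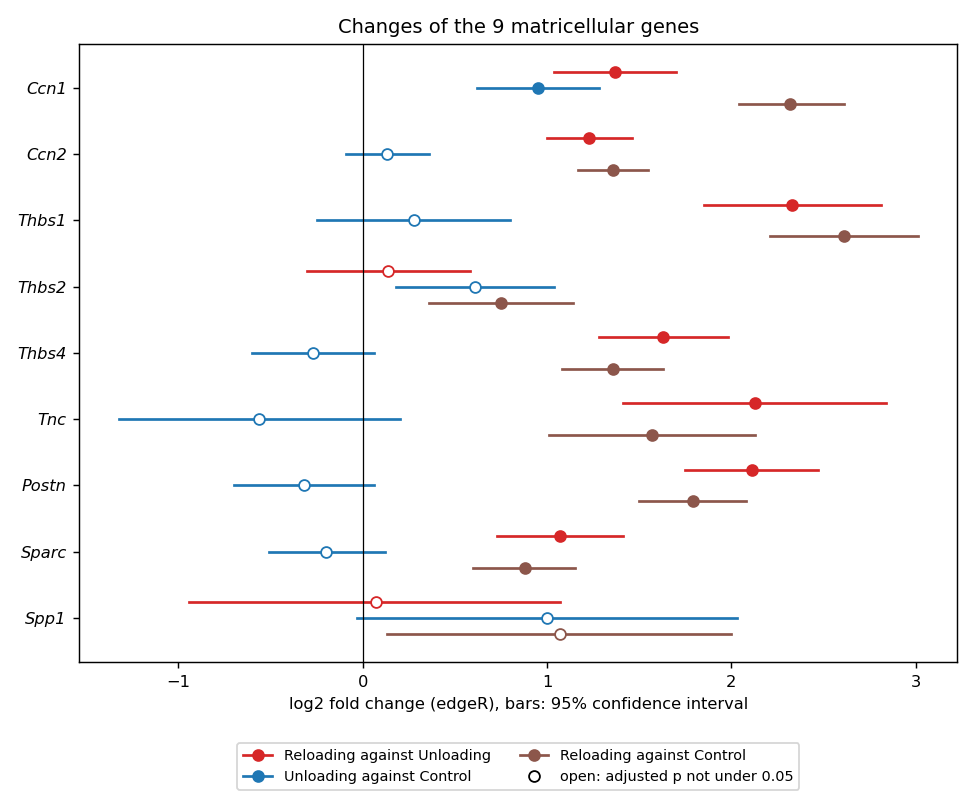
Log2 fold changes of the 9 genes in 3 comparisons with 95% confidence intervals from edgeR, where filled points passed an adjusted p of 0.05. The Reloading points of 7 genes lie well above 0 in both comparisons, Ccn1 alone has a filled point in Unloading against Control, and Spp1 has no filled point.

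Ccn1 (ENSMUSG00000028195, chr3:145646976-145649981, minus strand, GRCm38) encodes a matrix-bound integrin ligand. It stood at 12.5, 16.5, 16.4 and 18.3 CPM in the Control libraries, at 34.8 and 27.5 CPM in Unloading and at 92.8, 84.1 and 64.5 CPM in Reloading. No library overlapped with another group, and the groups formed 3 separate steps. The mean levels were 15.9 ± 2.46 CPM (SD, n = 4), 31.2 ± 5.14 CPM (SD, n = 2) and 80.5 ± 14.5 CPM (SD, n = 3). Ccn1 rose 1.93-fold in Unloading against Control (log2 fold change 0.95 ± 0.15 SE, adjusted p = 0.00237) and a further 2.59-fold in Reloading against Unloading (1.37 ± 0.15, adjusted p = 1.02e-05). Against Control, Reloading was 5-fold higher (2.32 ± 0.13, adjusted p = 6.55e-09). The rise in Unloading rested on few libraries: without Unloading 1 it was 0.78 with an adjusted p of 0.0679, and only 121 genes in all were then called. It is the gene whose promoter window carries both the TEAD letters and a TATA box.

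Ccn2 (ENSMUSG00000019997, chr10:24595442-24598683, plus strand), the connective tissue growth factor, took another course than Ccn1. Its Control libraries held 15.2, 16.6, 15.3 and 17 CPM, its Unloading libraries 19.6 and 15.7 CPM and its Reloading libraries 41.8, 39.3 and 42.1 CPM. Control and Unloading overlapped, and all Reloading libraries were far above both. The change in Unloading was 0.13 with a 95% interval of -0.09 to 0.36 (adjusted p = 0.47), and without Unloading 1 it was -0.03. Reloading raised Ccn2 2.34-fold above Unloading (log2 fold change 1.23 ± 0.11 SE, adjusted p = 1.02e-06) and 2.56-fold above Control (1.36 ± 0.09, adjusted p = 2.7e-08). Per exon length, measured as CPM per kilobase of exon (FPKM), the level of Ccn1 was 1.41 ± 0.171 times that of Ccn2 over the Control libraries (SD, n = 4), 2.5 ± 0.0252 times over Unloading (SD, n = 2) and 2.78 ± 0.532 times over Reloading (SD, n = 3). Of the exon bases of Ccn2, 23.2% also lie in the antisense gene Gm15270, which had at most 7 counts, and the counting did not use strand.

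**Figure D2:**
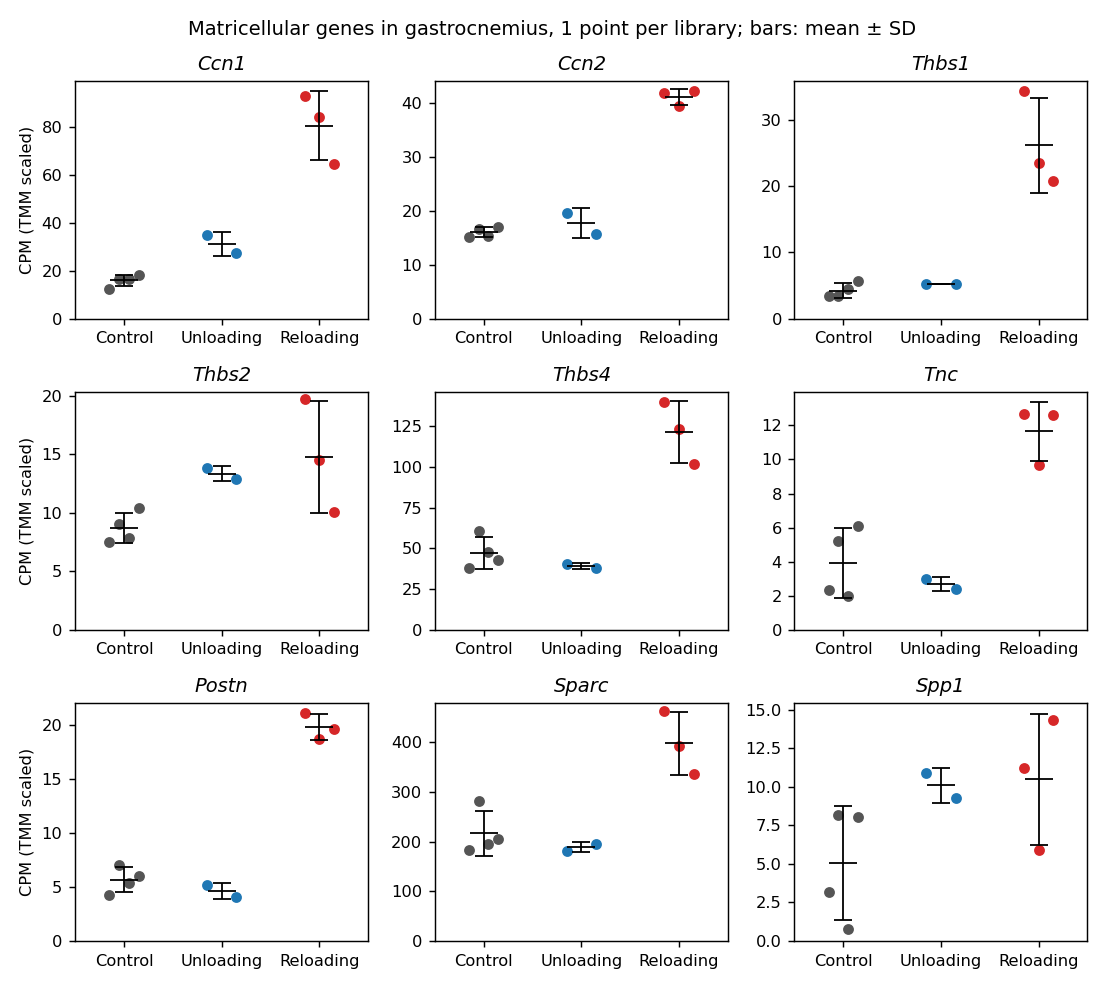
Level of each gene in CPM in the 9 libraries by group, 1 point per library with the mean and SD. Ccn1 forms 3 separate steps, Ccn2, Thbs1, Thbs4, Tnc, Postn and Sparc stand higher in Reloading only, and Reloading overlaps with other groups for Spp1 and Thbs2.

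The 3 thrombospondins differed in course. Thbs1 (ENSMUSG00000040152, chr2:118111876-118127133, plus strand), which activates TGF-beta and restrains vessel growth, had the largest rise of the 9 genes. It stood at 3.38, 3.39, 4.42 and 5.74 CPM in Control, at 5.16 and 5.18 CPM in Unloading and at 34.3, 23.5 and 20.7 CPM in Reloading. The Unloading libraries fell inside the Control range, and the lowest Reloading library was well above every other. Reloading was 5.04-fold above Unloading (log2 fold change 2.33 ± 0.22 SE, adjusted p = 2.6e-06) and 6.09-fold above Control (2.61 ± 0.19, adjusted p = 7.69e-08). Unloading against Control gave 0.28 with a 95% interval of -0.25 to 0.8 (adjusted p = 0.519).

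Thbs2 (ENSMUSG00000023885, chr17:14665500-14694235, minus strand), a close relative of Thbs1 with a role in collagen fibril assembly, had 7.54, 9.02, 7.85 and 10.4 CPM in Control, 13.8 and 12.9 CPM in Unloading and 19.7, 14.5 and 10.1 CPM in Reloading. Both Unloading libraries were above all Control libraries, and the Reloading libraries spanned both groups. Reloading against Unloading gave a log2 fold change of 0.14 with a 95% interval of -0.3 to 0.58 (adjusted p = 0.623), and without Reloading 1 the value was -0.12. Unloading against Control gave 0.61 ± 0.2 SE, which missed the threshold (adjusted p = 0.0695) and passed it without the pair with skin transcripts (0.62, adjusted p = 0.0412), without Reloading 1 (adjusted p = 0.0251) and without Reloading 3 (adjusted p = 0.0231). It passed as well with no filter (0.65, adjusted p = 0.000246), by DESeq2 (0.62, adjusted p = 0.0458) and with only those groups in the fit (0.6, adjusted p = 0.0171). The p-values of the fit with no filter are not on the scale of the others, as described for Spp1 below. Reloading was 1.68-fold above Control (0.75 ± 0.18, adjusted p = 0.00372), with overlapping groups, and 0.5 without that pair (adjusted p = 0.0374). Within a library, the FPKM of Thbs1 was 0.558 ± 0.102 times that of Thbs2 over Control (SD, n = 4), 0.447 ± 0.0241 times over Unloading (SD, n = 2) and 2.08 ± 0.252 times over Reloading (SD, n = 3). The more abundant of the pair per length was thus Thbs2 in every Control and Unloading library and Thbs1 in every Reloading library.

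Thbs4 (ENSMUSG00000021702, chr13:92751590-92794818, minus strand), a thrombospondin of muscle and tendon matrix, was the most abundant of the 3 per length in every group. Control libraries held 38.1, 60.8, 47.6 and 42.7 CPM, Unloading libraries 40.5 and 38 CPM and Reloading libraries 140, 123 and 102 CPM. Unloading and Control overlapped, and each Reloading library exceeded all others. Thbs4 rose 3.1-fold in Reloading against Unloading (log2 fold change 1.63 ± 0.16 SE, adjusted p = 3.72e-06) and 2.56-fold against Control (1.36 ± 0.13, adjusted p = 1.18e-06). The change in Unloading was -0.27 with a 95% interval of -0.6 to 0.06 (adjusted p = 0.282). The highest library of Control and that of Reloading were those with skin transcripts, and without them Reloading against Unloading was 1.52 (adjusted p = 5.8e-07). Its promoter window is the one with the TEAD letters in overlapping copies.

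Tnc (ENSMUSG00000028364, chr4:63959785-64047015, minus strand) encodes tenascin-C, a large hexameric glycoprotein that loosens cell adhesion. It had 2.36, 5.21, 2 and 6.08 CPM in Control, 2.99 and 2.4 CPM in Unloading and 12.7, 9.67 and 12.6 CPM in Reloading. The Control libraries fell into a low pair (1 and 3) and a high pair (2 and 4), between which the Unloading libraries lay, and every Reloading library was above them all. Reloading was 4.37-fold above Unloading (log2 fold change 2.13 ± 0.33 SE, adjusted p = 0.000181) and 2.96-fold above Control (1.57 ± 0.26, adjusted p = 0.000204). Unloading against Control gave -0.56 with a wide 95% interval of -1.32 to 0.2 (adjusted p = 0.349). Counts per library ran from 21 to 191.

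Postn (ENSMUSG00000027750, chr3:54361109-54391037, plus strand) encodes periostin, which links tenascin-C to collagen. Its level was 4.28, 7.03, 5.35 and 6 CPM in Control, 5.16 and 4.09 CPM in Unloading and 21.1, 18.7 and 19.6 CPM in Reloading. The Reloading libraries lay close together and far above the rest, with a mean of 19.8 ± 1.2 CPM (SD, n = 3). Postn rose 4.32-fold against Unloading (log2 fold change 2.11 ± 0.17 SE, adjusted p = 4.44e-07) and 3.46-fold against Control (1.79 ± 0.14, adjusted p = 1.21e-07). In Unloading against Control the value was -0.32 (95% interval -0.7 to 0.06, adjusted p = 0.275). Tnc and Postn kept a similar ratio of FPKM, with a mean of 0.751 ± 0.307 over Control libraries (SD, n = 4), of 0.653 ± 0.00551 over Unloading (SD, n = 2) and of 0.658 ± 0.0719 over Reloading (SD, n = 3).

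Sparc (ENSMUSG00000018593, chr11:55394500-55423183, minus strand), the collagen-binding glycoprotein also called osteonectin, was by far the most abundant of the 9 per length. Control libraries held 184, 282, 195 and 205 CPM, Unloading libraries 182 and 196 CPM and Reloading libraries 464, 393 and 336 CPM. All Reloading libraries were above the highest Control library, and Control and Unloading overlapped. Its rise was the smallest of the 7, at 2.11-fold against Unloading (log2 fold change 1.07 ± 0.16 SE, adjusted p = 0.000115) and 1.84-fold against Control (0.88 ± 0.13, adjusted p = 6.44e-05). Unloading against Control gave -0.2 with a 95% interval of -0.51 to 0.12 (adjusted p = 0.438). Control 2 and Reloading 1, the pair with skin transcripts, were the highest libraries of their groups, and without them the rises were 0.95 (adjusted p = 8.7e-06) and 0.9 (adjusted p = 3.46e-06).

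Spp1 (ENSMUSG00000029304, chr5:104435118-104441050, plus strand), encoding the cytokine-like phosphoprotein osteopontin, varied widely between Control libraries. Control libraries held 3.15, 8.19, 0.785 and 8.05 CPM (28, 99, 11 and 94 counts), Unloading libraries 10.9 and 9.27 CPM and Reloading libraries 11.2, 5.92 and 14.3 CPM. Control spread over a wide range, both Unloading libraries were above it, and Reloading overlapped with both groups. In the fit with the filter and no block, Spp1 passed the test in no comparison: Reloading against Unloading gave 0.07 with a 95% interval of -0.94 to 1.07 (adjusted p = 0.928), Unloading against Control 1 ± 0.48 SE (adjusted p = 0.207) and Reloading against Control 1.07 ± 0.44 (adjusted p = 0.0619). With the replicate numbers of the sample descriptions as a block, Reloading against Control was 1.12 and passed (adjusted p = 0.00359). It also passed when Control 2 was left out (1.42, adjusted p = 0.0183), and likewise Control 4 (1.4, adjusted p = 0.0297) or Reloading 2 (1.35, adjusted p = 0.0316), under library totals (1.31, adjusted p = 0.0212), with the title numbers as a block (1.43, adjusted p = 0.0476) and without the pair with skin transcripts (1.38, adjusted p = 0.0492). With no filter on low counts Spp1 passed both in Reloading against Control (1.08, adjusted p = 6.18e-12) and in Unloading against Control (1.04, adjusted p = 1.98e-08). That fit also took Thbs4 in Reloading against Unloading from an adjusted p of 3.72e-06 to 1.49e-53, at log2 fold changes of 1.63 and 1.61. Its p-values are therefore not on the scale of the other settings and add no weight to Spp1. Against Unloading the sign turned without Reloading 3 (-0.24) or Unloading 2 (-0.06). Of its exon bases 18.8% also lie in Gm42793, which had at most 5 counts.

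Per exon length, the order of the levels changed with load. In Control the mean FPKM fell from Sparc (57.1) through Thbs4 (14.4), Ccn1 (7.9), Ccn2 (5.6), Spp1 (3.06), Thbs2 (1.24), Thbs1 (0.697) and Postn (0.651) to Tnc (0.504). Spp1, at 0.476 to 4.97 FPKM, overlapped with Thbs2, Thbs1, Postn and Tnc, and the last 3 overlapped with each other. In Unloading, Ccn1 (15.4 FPKM) stood above Thbs4 (11.9 FPKM) in both libraries, and Ccn2 (6.17 FPKM) overlapped with Spp1 (6.12 FPKM). In Reloading the mean FPKM was 105 for Sparc, 39.9 for Ccn1, 37 for Thbs4, 14.4 for Ccn2, 6.36 for Spp1, 4.31 for Thbs1, 2.28 for Postn, 2.11 for Thbs2 and 1.5 for Tnc. There Ccn1 overlapped with Thbs4, Spp1 with Thbs1, and Thbs2 with both Postn and Tnc.

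The summed level of the 9 genes was 91.1 ± 17.1 FPKM over the Control libraries (SD, n = 4), 93.1 ± 2.33 FPKM over Unloading (SD, n = 2) and 213 ± 30.9 FPKM over Reloading (SD, n = 3). Sparc made up 62.6% ± 2.21 of that sum in Control libraries, 53.6% ± 4.18 under Unloading and 49.3% ± 0.906 under Reloading (SD, same n). Ccn1 made up 8.77% ± 1.38, 16.6% ± 2.32 and 18.7% ± 1.23 in the same order. Without Sparc the sum was 27.4 to 40.8 FPKM in Control, 39.8 to 46.8 FPKM in Unloading and 95 to 123 FPKM in Reloading, so that only Reloading stood clear of the other groups.

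**Figure D3:**
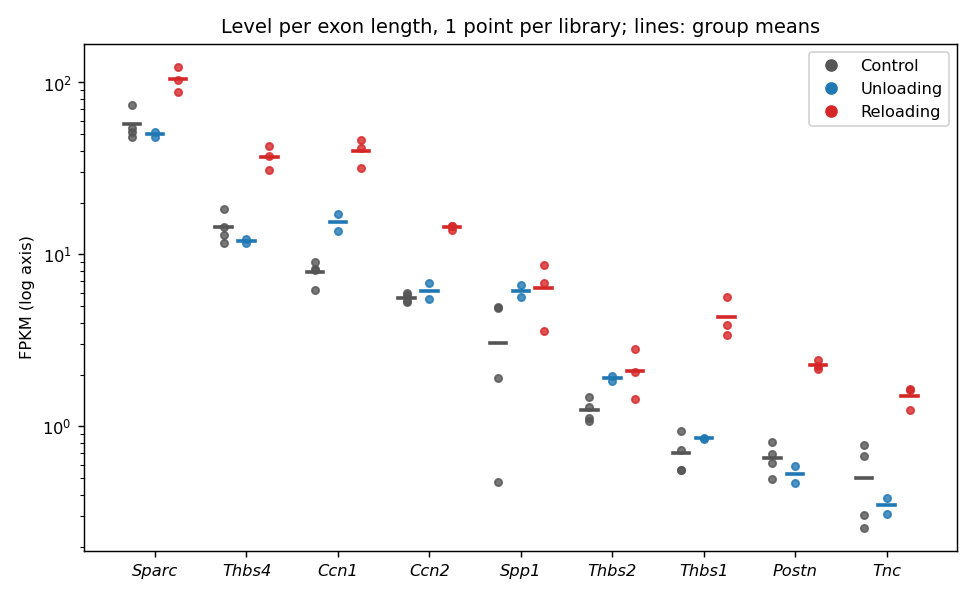
Level per exon length in FPKM on a log axis, with genes ordered by their Control mean, 1 point per library and lines at group means. Sparc is highest in every group, and Thbs1 moves from below Thbs2 in Control and Unloading to above it in Reloading.

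Within groups, some of the genes deviated together from library to library. After the group mean of log2 CPM was taken off each library, Thbs4 and Sparc correlated at 0.92 and Tnc and Spp1 at 0.91 over the 9 libraries, which share depth and dissection. These pairs were picked as the highest of the 36 pairs of members, of which the lowest was Thbs1 with Spp1 (0.03). Sparc stood 0.4 and Thbs4 0.38 above the Control mean on the log2 scale in Control 2, and 0.24 and 0.22 above the Reloading mean in Reloading 1. Those are the libraries with skin transcripts, and the keratinocyte markers correlated with Sparc at 0.92 and with Thbs4 at 0.84 in the same way. They were not alone in this: endothelial markers gave 0.88 with Thbs4, and tendon markers gave 0.83 and fibroblast markers 0.78 with Sparc. Neutrophil markers went the other way, at -0.24 with Sparc and -0.5 with Thbs4. The part of skin or of any of these cell types in these levels was not tested. Tnc and Spp1 followed another split, with Control 2 and 4 high and Control 1 and 3 low for both. Tnc deviated by 0.55, 0.77, -0.54 and -0.77 and Spp1 by 1.13, 1.11, -0.21 and -2.03 in the order of libraries 2, 4, 1 and 3. Control 4 held 2 counts of Krt2, Control 1 had 0 and Control 3 had 1. Ibsp, the bone sialoprotein gene, followed the same split, with 49 and 34 counts in Control 2 and 4 and 2 and 0 counts in Control 1 and 3. It had 56 and 61 counts in Unloading and 36, 20 and 55 counts in Reloading, so that Reloading 2 was the lowest Reloading library for Ibsp as for Spp1 and Tnc. Ibsp was singled out after its values were seen, and its part in the levels of Spp1 and Tnc was not tested.

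**Figure D4:**
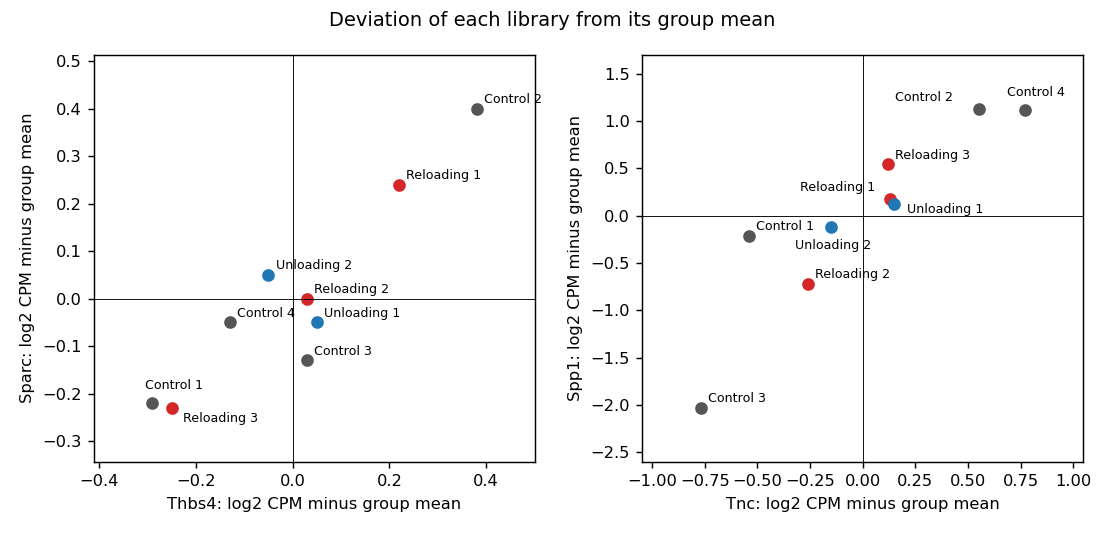
Deviation of each library from its group mean in log2 CPM, for Sparc against Thbs4 (left) and Spp1 against Tnc (right), with points coloured by group and named by library. Control 2 and Reloading 1 lie at the upper right for Sparc and Thbs4, and Control 2 and 4 for Spp1 and Tnc.

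Of 21 genes of the same families, 13 had enough counts to be tested, and in Reloading against Unloading 3 were higher, 3 lower and 7 not called, with a median log2 fold change of 0.05. Over all tested genes 18.5% were called higher and 19.0% lower. Comp, the cartilage thrombospondin also found in tendon, rose from 5.08 and 4.53 CPM in Unloading to 13.8, 9.96 and 8.92 CPM in Reloading (log2 fold change 1.18, adjusted p = 0.000747). Ccn5, a CCN protein without the C-terminal domain, rose by a log2 fold change of 0.81 (adjusted p = 0.0304) and the SPARC relative Fstl1 by 0.59 (adjusted p = 0.000694). Ccn3 went the other way from Ccn1 and Ccn2, from 6.95 and 4.85 CPM in Unloading to 2.33, 2.89 and 3.37 CPM in Reloading (-1.01, adjusted p = 0.00284). The SPARC relatives Smoc2 (-0.61, adjusted p = 0.000318) and Spock2 (-0.61, adjusted p = 0.0196) also fell. Under library totals alone the count was 7 higher and 2 lower, with Spock2 no longer called (-0.36, adjusted p = 0.129). Sparcl1, at -0.31 (adjusted p = 0.042), was the one relative called in Unloading against Control, where 4.40% of all tested genes were called higher and 5.50% lower. In Reloading against Control 5 were higher and 2 lower, with Ccn5 at 1.5 (adjusted p = 0.000213), Comp at 1.07 (adjusted p = 0.000261) and Ccn3 at -0.57 (adjusted p = 0.0401). Over all tested genes 22.1% were called higher and 21.3% lower there.

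All 23 listed receptors of matricellular proteins were tested, and 10 were higher and 4 lower in Reloading against Unloading, with a median log2 fold change of 0.48, where 18.5% of all tested genes were called higher and 19.0% lower. Cd44, a hyaluronan receptor that also binds osteopontin, stood at 3.81 and 3.76 CPM in Unloading and at 15, 12.5 and 11.4 CPM in Reloading (1.77, adjusted p = 2.05e-06). The integrin alpha chains Itga5 (1.65, adjusted p = 1.32e-06), Itga6 (1.52, adjusted p = 6.81e-06) and Itga8 (1.22, adjusted p = 0.00471) rose, as did their shared partner Itgb1, the integrin beta-1 chain (0.82, adjusted p = 3.88e-06). Itgb1 and Cd47 are named for their roles after their values were seen. None of Cd36, Cd47 and Cacna2d1, best known as partners of thrombospondins, was called higher. Cacna2d1, a calcium channel subunit of muscle fibres that binds thrombospondins, went from 727 and 651 CPM in Unloading to 316, 355 and 365 CPM in Reloading (-1, adjusted p = 2.98e-06). Cd36, the fatty acid and thrombospondin-1 receptor, went from 271 and 252 CPM to 167, 159 and 176 CPM (-0.64, adjusted p = 1.13e-05), and Cd47 gave 0 ± 0.11 SE (adjusted p = 0.989). Itgb5 (-0.64, adjusted p = 0.000117) and Lrp6, a Wnt co-receptor that CCN2 binds (-0.39, adjusted p = 0.00212), fell as well. Under library totals alone 14 were higher and 3 lower, with Lrp6 not called (-0.15, adjusted p = 0.162).

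In Unloading against Control, 1 of the 23 receptors was higher, the endocytic receptor Lrp1 (0.34, adjusted p = 0.0257), and 1 lower, Itgav, the alpha-V integrin chain (-0.26, adjusted p = 0.0468). These counts are near the shares over all tested genes, 4.40% called higher and 5.50% lower. In Reloading against Control 11 were higher and 5 lower, where 22.1% of all tested genes were called higher and 21.3% lower. Cd44 (1.96, adjusted p = 7.67e-08), Tlr4 (1.89, adjusted p = 6.81e-06), which tenascin-C can activate, and Itga5 (1.81, adjusted p = 4.12e-08) led the rise, and Cacna2d1 (-0.78, adjusted p = 3.65e-06) the fall.

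Ccn1 and Ccn2 are textbook targets of YAP with TEAD factors and of serum response factor with its MRTF coactivators, and Thbs1, Tnc and Postn of TGF-beta. The pathway lists are read against 18.5% of all tested genes called higher and 19.0% lower in Reloading against Unloading. Of 19 other genes of the YAP and TEAD pathway, 6 were higher and 2 lower in that comparison (median log2 fold change 0.27). Ankrd1, a sarcomere-associated stress protein, rose by 4.52 (adjusted p = 7.6e-09), the kinase gene Nuak2 by 1.16 (adjusted p = 0.0352), Tead2 by 1.1 (adjusted p = 0.0119) and Yap1 by 0.64 (adjusted p = 3.02e-05), whereas Crim1 (-0.59, adjusted p = 0.0023) and the kinase gene Lats1 (-0.32, adjusted p = 0.0214) fell. Of 13 genes of the serum response factor list 10 were higher and 1 lower (median 1.05), led by the non-muscle myosin Myh9 (1.82, adjusted p = 3.58e-08) and the tropomyosin Tpm4 (1.6, adjusted p = 5.54e-08). Of 20 genes of the TGF-beta pathway 7 were higher and 2 lower (median 0.13), the higher ones including Ltbp2 (1.79, adjusted p = 0.00095) and the ligand Tgfb1 (1.35, adjusted p = 0.000601). Under library totals alone the counts were 10 higher and 1 lower, 11 and 0, and 11 and 1.

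In Unloading against Control, the 3 pathway lists are read against 4.40% of all tested genes called higher and 5.50% lower. Amotl2 (0.5, adjusted p = 0.0113) and the receptor kinase gene Axl (0.36, adjusted p = 0.02) of the YAP list were higher and Tead1 lower (-0.29, adjusted p = 0.0416). No gene of the serum response factor list was called, and Tgfbr3 (0.63, adjusted p = 0.00239) and Pmepa1 (0.54, adjusted p = 0.00214) of the TGF-beta list were higher. In Reloading against Control the counts of higher and lower genes were 9 and 2, 9 and 1, and 9 and 2 in the 3 lists. Over all tested genes 22.1% were called higher and 21.3% lower in that comparison.

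**Figure D5:**
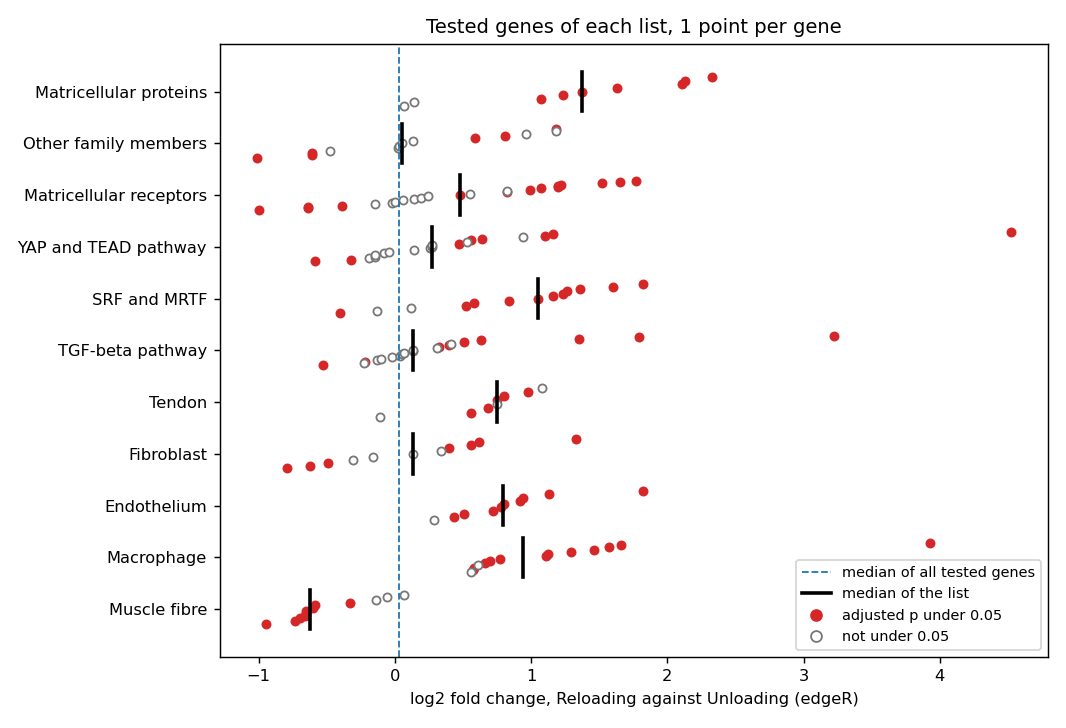
Log2 fold change in Reloading against Unloading for each tested gene of the 9, their relatives, their receptors, 3 upstream pathways and 5 of the cell type lists, with a bar at each list's median. The 9 genes have a median of 1.37 against 0.03 for all genes (dashed line), and the muscle fibre list has a median of -0.62.

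Markers of several cell types that make these proteins also moved in Reloading. Their counts are read against 18.5% of all tested genes called higher and 19.0% lower in Reloading against Unloading. Tendon markers summed to 70.8 to 97.6 CPM in Control, 81.8 to 105 CPM in Unloading and 145 to 177 CPM in Reloading, and 5 of 8 were higher against Unloading, among them the tenocyte transcription factor Scx (0.98, adjusted p = 0.00049) and Tnmd (0.75, adjusted p = 0.011). Macrophage markers summed to 86.7 to 109 CPM, 90.8 to 91.9 CPM and 185 to 205 CPM, with 12 of 14 tested higher. Endothelial markers summed to 234 to 269 CPM, 232 to 241 CPM and 379 to 460 CPM, with 9 of 10 higher. Schwann cell markers summed to 38.6 to 59.3 CPM, 44.1 to 55.3 CPM and 96.8 to 134 CPM, with 5 of 8 higher. The sums of these 4 lists did not overlap between Reloading and the other groups, and neither did 7 of the 9 genes. Of all tested genes, 31.0% were higher without overlap against Unloading and 24.2% against Control. The share clear of both groups was not computed. The part of these lists in the results was not tested.

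Fibroblast markers moved in both directions, with sums of 1060 to 1270 CPM in Control, 1550 to 1610 CPM in Unloading and 1080 to 1100 CPM in Reloading. Gsn made up most of each sum, with group means of 672, 1010 and 584 CPM. The mean of the 11 markers' log2 CPM, each centred over the libraries, was instead -0.19 to 0.11 in Control, -0.04 and 0.07 in Unloading and 0.1 to 0.12 in Reloading. In Reloading against Unloading 4 of the 11 were higher, Col15a1 (1.33, adjusted p = 0.000232), Mfap5 (0.62, adjusted p = 0.00429), Ly6a (0.56, adjusted p = 0.0163) and Cd34 (0.4, adjusted p = 0.0122), and 3 lower, Gsn (-0.79, adjusted p = 1.03e-05), Pdgfra (-0.62, adjusted p = 0.000795) and Dcn (-0.49, adjusted p = 0.000277). In Unloading against Control Pdgfra (0.63, adjusted p = 0.00377), Dcn (0.59, adjusted p = 0.000544) and Gsn (0.59, adjusted p = 0.00094) were higher. The other 8 of the 11 were not called there, and the median log2 fold change of the list was 0.06. Of all tested genes, 4.40% were called higher and 5.50% lower in Unloading against Control. Smooth muscle and pericyte markers summed to 613 to 669 CPM, 655 to 711 CPM and 628 to 672 CPM. Rgs5 (group means 267, 322 and 263 CPM) and Abcc9 (262, 240 and 178 CPM) weighed heavily in each sum. The centred mean of the 11 was -0.45 to -0.16 in Control, -0.1 and -0.27 in Unloading and 0.5 to 0.54 in Reloading. In Reloading against Unloading 7 of 11 were higher, among them Cnn1 (2.54, adjusted p = 0.000101) and Acta2 (1.46, adjusted p = 1.05e-07). The 2 lower were Rgs5 (-0.29, adjusted p = 0.0105) and Abcc9 (-0.43, adjusted p = 0.000911). Muscle fibre genes fell in the same comparison, 9 of 12, and none rose. Over all tested genes 18.5% were called higher and 19.0% lower in Reloading against Unloading.

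Satellite cell markers summed to 47.1 to 57.4 CPM, 54.8 to 65.2 CPM and 62.3 to 67.1 CPM. Of 7 tested, 2 were higher in Reloading against Unloading, where 18.5% of all tested genes were called higher. Platelets carry thrombospondin-1 and osteonectin, but only 3 of 8 platelet markers had enough counts to be tested and none was called there. Their sum was 6.77 to 9.52 CPM in Control, 10.2 to 10.6 CPM in Unloading and 9.65 to 12.2 CPM in Reloading, and Gp9, Treml1 and Tubb1 were at 0 in both Unloading libraries. Neutrophil markers summed to at most 5.97 CPM in any library, with 2 of 8 tested and none called, and Cxcr2 and Ly6g were at 0 in Unloading. Keratinocyte markers summed to 309 CPM in Control 2 and 137 CPM in Reloading 1 and to at most 4.54 CPM elsewhere, and none of the 8 tested was called in any comparison.

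Across all tested genes with a mean log2 CPM of at least 2, the genes whose log2 CPM followed each member most closely over the 9 libraries were read off as a description. The libraries share group, depth and dissection. Nrap, a protein of muscle-tendon junctions and intercalated discs, was closest to Ccn2 (Pearson r 0.996), followed by Akap12 and Lmcd1. Itga7, the laminin-binding integrin of muscle fibres, was closest to Ccn1 (0.994), followed by Srrt and Myo18b. Thbs1 lay closest to Ascc2 (0.994), Slc9a8 and the focal adhesion gene Vcl, and Thbs4 to Tspan9 (0.994), Hspb6 and the basement membrane collagen gene Col4a2. Postn lay closest to Slc12a4 (0.997), Mapre2 and the laminin gene Lamb2, Sparc to S100a10 (0.99), Rnf19b and Col16a1, and Tnc to Lmod2 (0.966), Armcx3 and Ifi30. The closest genes to Thbs2 were Kat2a (0.931), Otud5 and Ssh3, and to Spp1 Igfbp4 (0.91), Dgcr8 and Fam171a1, lower values than for the 7 genes that rose under reloading. That difference went with the group means. Once those were taken off, the highest r of any gene was 0.98 for both Thbs2 and Spp1, and 0.947 for Tnc.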

How the data were processed

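RNA of 9 gastrocnemius libraries was sequenced after poly-A enrichment. Per the labels and the file headers, the authors aligned reads with STAR 2.7.3a and ran featureCounts 2.0.3, unstranded and on read pairs, against Ensembl release 102 of GRCm38.p6. The study's methods describe single reads, whereas the file header has counting of read pairs, so whether a count is a read or a fragment is not settled. The deposited count table holds raw counts with the exon length of every gene. The authors' DESeq2 tables also hold their own fold changes and p-values, which were not used, and a mean normalized signal per gene, which was used to check that they came from these counts (within 0.1% for 29316 of 29316 genes). Gene symbols were taken from the same tables.

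Counts were tested with edgeR 4.0.16 (R 4.3.3) by the quasi-likelihood test on all 9 libraries, with TMM scaling, filterByExpr (minimum count 10, minimum total 15), group as the only term, and Benjamini-Hochberg adjustment over 14851 genes at a threshold of 0.05. The study used DESeq2, run here (1.42.0) as an alternative. CPM (counts per 1000000) used the scaled library total, FPKM is CPM per kilobase of exon, and log2 CPM used a prior count of 2. The script was tested on simulated data. All 9 members were named, and of each list the called genes with the largest change, at most 4 a direction. A gene that this rule names is not reported here. The members and the 17 gene lists were chosen with earlier results of these data known. Replicate numbers in the titles did not pair the samples (correlation of deviations -0.2 to 0.08). The numbers in the sample descriptions gave 0.36, 0.14 and 0.16 for the pairs of Reloading and Control, and are taken to pair those groups. The first is the pair with skin transcripts, and the other values are low. Pairs with Unloading gave 0.02 to 0.08. The main fit did not use the pairs, and a block by these numbers was run as an alternative. The labels do not say what the number marks.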

Additional observations from a re-analysis of the deposited data

How the results depend on the processing

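Each value was recomputed under library totals, DESeq2 size factors, DESeq2's own test, no filter, a stricter filter (50 counts in 2 libraries), a robust fit, only the groups compared, both replicate blocks, and without single libraries or the pair with skin transcripts. Over the members' fold changes in all alternatives, 492 kept direction and side of the threshold, 15 newly passed it, 1 no longer did and 5 changed sign. The 7 members higher in Reloading against Unloading stayed 7 in every alternative. The count in Unloading against Control was 3 with no filter, which added Thbs2 and Spp1, and 2 with DESeq2, with only the groups compared and without Control 2 and Reloading 1. The fit with no filter gave far smaller p-values at nearly the same fold changes, so that its added calls carry little weight. Leaving out single libraries gave 0 to 2 members there, 8 to 9 in Reloading against Control, and 121 to 1517 genes in all in Unloading against Control, with 121 without Unloading 1 and 946 without Control 3. Sign changes were those of Thbs2 in Reloading against Unloading, -0.12 both without Reloading 1 and without Control 2 and Reloading 1 (range over single libraries -0.12 to 0.36), of Spp1 in that comparison, -0.24 without Reloading 3 and -0.06 without Unloading 2 (range -0.24 to 0.35), and of Ccn2 in Unloading against Control, -0.03 without Unloading 1 (range -0.03 to 0.29). The cause was not tested. The replicate block by description numbers called 9 members in Reloading against Control by adding Spp1 (1.12, adjusted p = 0.00359) and changed no other call of a member. The block by title numbers also added only Spp1 (1.43, adjusted p = 0.0476). Control counts of Spp1 ran from 11 to 99 and those of Tnc from 21 to 71, and Unloading has 2 libraries in both comparisons that use it.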
